A study of Homo sapiens with 6 samples.

Results

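The 43 genes described here belong to the ATF4 pathway and to the unfolded protein response of the endoplasmic reticulum (ER). They were chosen by symbol from a written list, with earlier results of these data known. All 43 were found among the 22354 loci of the count table, and all 43 were among the 14860 loci kept by the filter on low counts. Their lowest count in any library was 143 reads. The list was separated into 23 genes of the amino acid response and 20 genes of the ER arm. RNA was sequenced from 6 libraries of HTori-3.1, a line of non-tumour human thyroid cells, of which 3 are labelled control (wild type) and 3 are labelled BMAL1 knockout. BMAL1 is a transcription factor of the circadian clock. The knockout cells were infected with lentivirus carrying Cas9 and an sgRNA against BMAL1, selected with puromycin and taken from single clones. Whether the 3 libraries came from the same clone, and whether the control cells received a virus, is not given in the sources used here. Cells of both groups were exposed to 2 μM etoposide, a topoisomerase inhibitor that damages DNA, for 12 h by the treatment field of the labels and for 24 h by the protocol. No library without etoposide was analysed here, so every difference below is one between 2 groups of etoposide-exposed cells. Control 1, 2 and 3 held 26893063, 27029060 and 28513703 reads in all, and BMAL1 knockout 1, 2 and 3 held 43148059, 29860233 and 43563391. Nothing states that the libraries of a group came from separate cultures, so the p-values measure only the spread between these samples, which may be technical.

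As background, ATF4 is a transcription factor whose protein is made when the kinases PERK, GCN2, PKR or HRI phosphorylate the initiation factor eIF2, and it switches on genes for amino acid uptake, amino acid synthesis, one-carbon metabolism and feedback on the stress itself. Misfolded protein in the ER is sensed by PERK, ATF6 and IRE1, and the last 2 drive a separate set of genes for ER chaperones, cochaperones and the degradation of misfolded proteins. Thyroid follicular cells fold and secrete large amounts of thyroglobulin. ATF4 is controlled mainly through its translation, and XBP1 through splicing of its mRNA by IRE1, and neither can be read from counts of reads per gene.

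The targeted gene was checked first. BMAL1 was measured at 11.3, 12.2 and 14.6 CPM (read counts scaled by TMM to a common depth) in the libraries labelled control, and at 17.9, 19.8 and 19.4 CPM in those labelled BMAL1 knockout. Every library labelled BMAL1 knockout was thus above every control, the opposite of what a knockout label leads one to look for. For BMAL1, edgeR (quasi-likelihood test, Benjamini-Hochberg adjustment) gave a log2 fold change of 0.58 and a standard error of 0.11 (adjusted p = 0.0204). By the same edgeR test and Benjamini-Hochberg adjustment, BMAL1 had an adjusted p of 0.0749 without knockout 2, 0.0598 without knockout 3, 0.0896 without control 1 and 0.113 without control 2, and under 0.05 without either of the other libraries. The transcript level does not show whether the protein was lost. The methods name a Western blot of BMAL1 as the check of the clones, and the study shows such blots for its control and knockout lines. No protein data were analysed here. NR1D1, a clock gene that BMAL1 activates, was measured at 7.75, 7.11 and 6.86 CPM in the libraries labelled control and 3.07, 3.24 and 2.84 CPM in those labelled BMAL1 knockout. For NR1D1, edgeR with Benjamini-Hochberg adjustment gave a log2 fold change of -1.25 and a standard error of 0.14 (adjusted p = 0.00146). NR1D2, a related clock gene, was also lower, at 64.9, 61.8 and 77.8 CPM against 42.0, 37.5 and 39.4 CPM, with a log2 fold change of -0.78 and a standard error of 0.10 (adjusted p = 0.00233) by the same edgeR test with Benjamini-Hochberg adjustment. Of 18 clock genes, these 3 among them, 8 lay above 0 and 10 below, with a median log2 fold change of -0.049. Called by edgeR were 1 higher and 4 lower, beside 1.08% and 1.43% of all loci. Because BMAL1 goes against the label, higher and lower below mean the level in the libraries so labelled relative to the controls.

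The libraries did not stand alike in base composition. Between loci of 40% and 60% exon GC content, the smoothed log2 CPM relative to the mean of the 6 libraries changed by 0.13 in control 1, 0.11 in control 2, 0.085 in knockout 2 and 0.095 in knockout 3, but by -0.19 in control 3 and -0.24 in knockout 1. Control 3 and knockout 1 thus ran opposite to the other libraries, 1 in each group. The counts of called genes in each arm are therefore also given with each library's GC trend removed, and with both of these libraries left out, a choice made after seeing the data that leaves 2 libraries a group. Whether the counting used strand is not given in the sources used here, so reads of genes that overlap on opposite strands cannot be told apart.

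The 2 arms lay on opposite sides of the other genes. Since the genes were chosen with earlier results of these data known, the values of all loci beside them are a description, not a test. The median log2 fold change was 0.14 over the 23 amino acid response genes and -0.17 over the 20 ER genes, beside 0.00990 over all 14860 loci tested. In the amino acid response 16 of 23 genes had a log2 fold change above 0, in the ER arm 2 of 20, and among all loci 52.2%. At an adjusted p under 0.05 by edgeR (quasi-likelihood test, Benjamini-Hochberg adjustment) over all loci, 5 of the 43 genes passed, beside 2.51% of all loci. Among them, ATF3 and DDIT4 were upregulated, beside 1.08% of all loci called higher. STC2, an amino acid response gene, and HSPA5 and HERPUD1 of the ER arm were downregulated, beside 1.43% called lower. At an unadjusted p under 0.05, 9 amino acid response genes lay higher and 2 lower, and 1 ER gene lay higher and 10 lower. The same unadjusted rule took 9.08% of all loci in the higher and 7.78% in the lower direction. Groups that did not overlap were found for 9 amino acid response genes in the higher and 3 in the lower direction, and for 1 ER gene in the higher and 9 in the lower direction, beside 11.8% and 11.5% of all loci. With 3 libraries in each group, the smallest 2-sided p that exact permutation allows is 0.1, reached by each gene whose groups did not overlap.

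With the GC trend removed, which could be done for 13578 loci, 4 amino acid response genes (ATF3, DDIT4, SESN2 and MTHFD2) were called higher, beside 3.23% of loci. STC2 and 6 ER genes (HSPA5, HSP90B1, DNAJC3, PDIA4, HYOU1 and HERPUD1) were then called lower, beside 4.77% of loci, and the medians of the arms were 0.15 and -0.17. With control 3 and knockout 1 both left out, 5 amino acid response genes (ATF3, DDIT4, SESN2, PSPH and MTHFD2) and 1 ER gene (EIF2AK3) were called higher. Lower were 3 amino acid response genes (SHMT2, SLC7A1 and STC2) and 11 ER genes (ATF6, HSPA5, HSP90B1, DNAJC3, SDF2L1, CANX, PDIA4, HYOU1, MANF, HERPUD1 and SEL1L), while 6.77% and 8.46% of all loci were called in these directions. The medians of the arms were then 0.10 and -0.18. In that fit the log2 fold changes of the 5 called genes were 0.50 for ATF3, 0.56 for DDIT4, -0.53 for STC2, -0.52 for HSPA5 and -0.43 for HERPUD1.

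**Figure D1:**
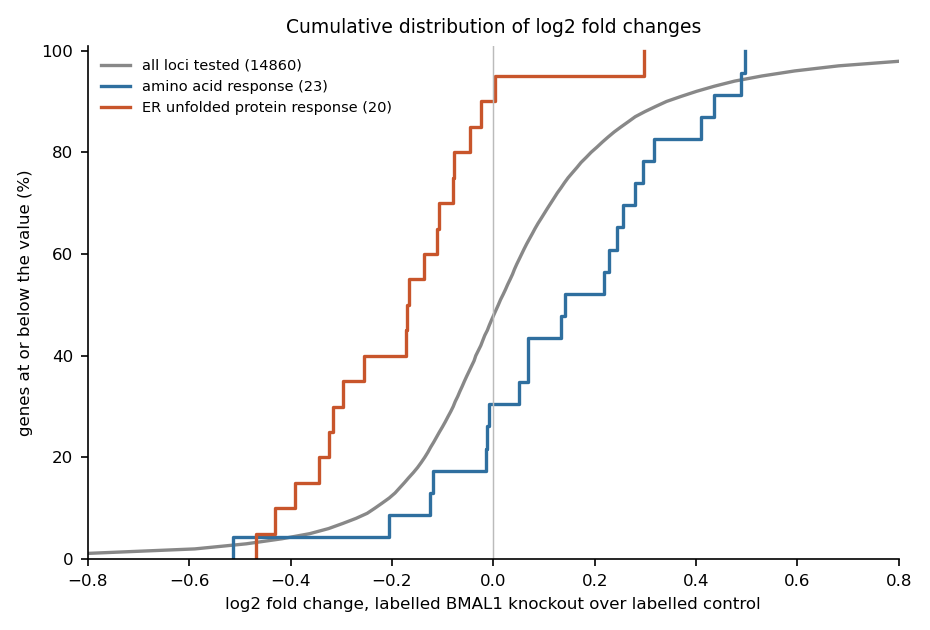
Cumulative share of genes (%) at or below each log2 fold change (BMAL1 knockout label over control), for all 14860 loci tested (grey), the 23 amino acid response genes (blue) and the 20 ER genes (orange). The orange line runs left of the grey one over most of its range, with a median of -0.17, and the blue line right of it, with a median of 0.14; STC2 is the lowest gene of the blue line.

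**Figure D2:**
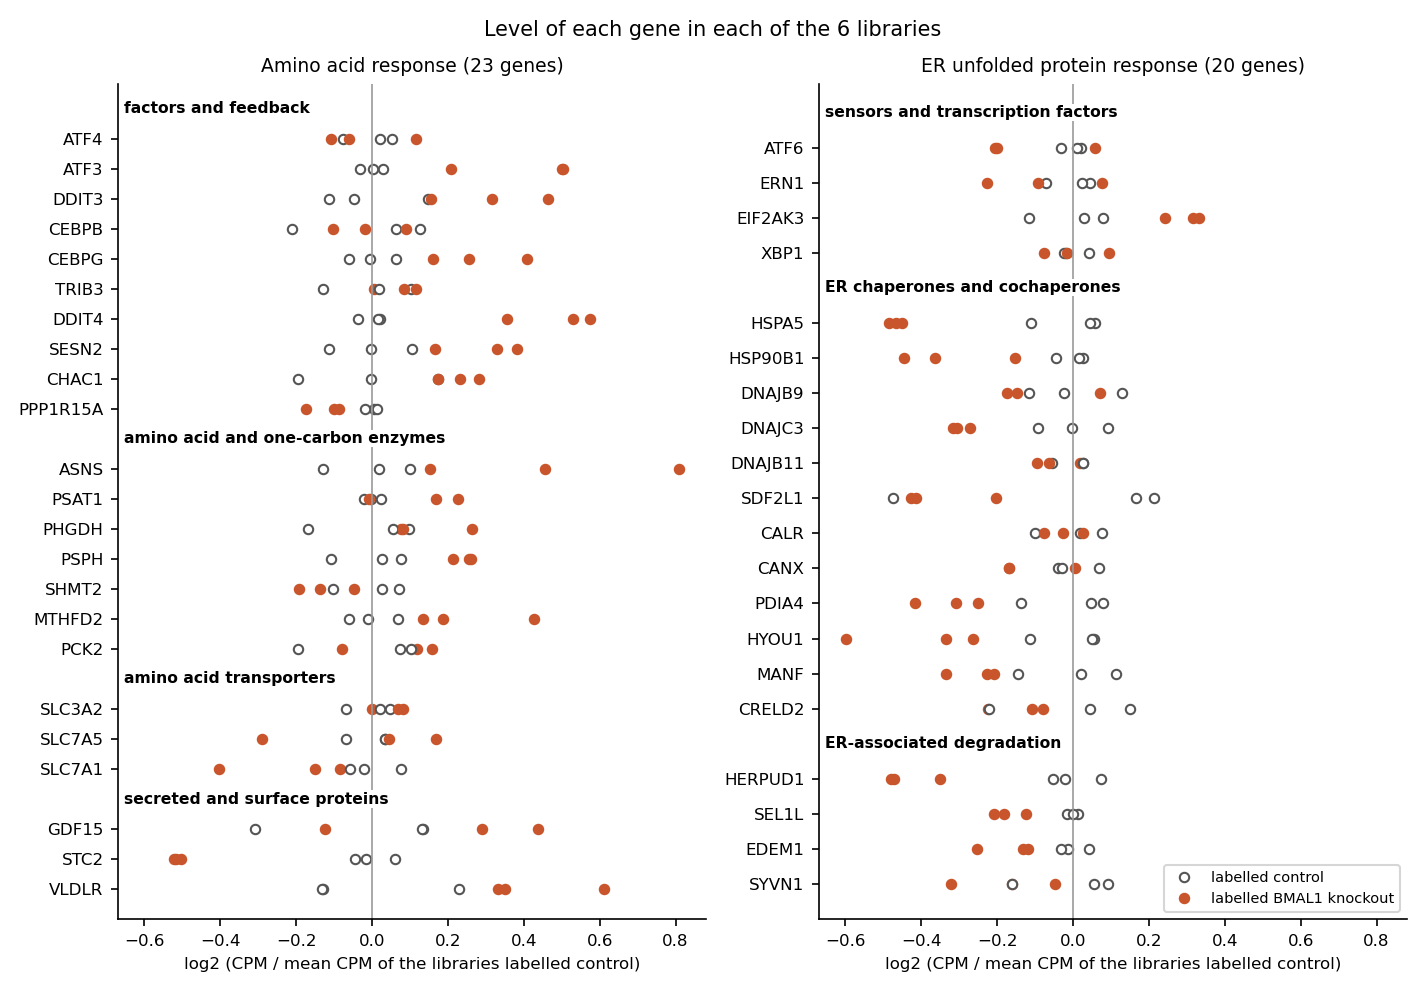
Level of each gene in each library, as log2 of its CPM over the mean CPM of the 3 libraries labelled control (open circles), with the 3 libraries labelled BMAL1 knockout as filled circles. HSPA5, HERPUD1 and STC2 lie lower and ATF3 and DDIT4 higher in all 3 libraries labelled BMAL1 knockout, whereas the groups overlap for ATF4 and XBP1.

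Among the amino acid response genes, the factors and feedback genes came first. ATF4 itself (ENSG00000128272.18, chr22:39519695-39522683 of hg38, forward strand) was measured at 205, 201 and 188 CPM in the libraries labelled control and at 214, 183 and 189.5 CPM in those labelled BMAL1 knockout. The groups overlapped, with knockout 1 the highest and knockout 2 the lowest of the 6 libraries. For ATF4, edgeR with Benjamini-Hochberg adjustment gave a log2 fold change of -0.014 and a standard error of 0.081 (unadjusted p = 0.866, adjusted p = 0.955, exact permutation p = 0.9), and the 95% confidence interval of the log2 fold change ran from -0.19 to 0.16. With control 3 and knockout 1 left out, the value was -0.12 with an adjusted p of 0.0524 by edgeR's test with Benjamini-Hochberg adjustment.

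ATF3, a stress-induced transcription factor that ATF4 can switch on (ENSG00000162772.18, chr1:212565334-212620777, forward strand), was measured at 53.4, 51.2 and 52.5 CPM in the libraries labelled control and 60.5, 74.2 and 74.1 CPM in those labelled BMAL1 knockout. The 3 control values lay close together, and knockout 1 was the lowest of its group but still above them. For ATF3, the comparison gave a log2 fold change of 0.41 and a standard error of 0.092 (unadjusted p = 0.000796, adjusted p = 0.0394, exact permutation p = 0.1) by edgeR (quasi-likelihood test, Benjamini-Hochberg adjustment). That adjusted p was under 0.05 without knockout 1 (0.00205), and was 0.165 without knockout 2, 0.111 without knockout 3, 0.111 without control 1, 0.174 without control 2 and 0.109 without control 3. By limma-voom the adjusted p of ATF3 was 0.0677, and by edgeR with replicate numbers as a block it was 0.0739. The log2 fold change was 0.40 in each of these fits. DDIT4, an inhibitor of mTORC1 signalling (ENSG00000168209.6, chr10:72273919-72276036, forward strand), was measured at 29.7, 28.5 and 29.6 CPM and 37.5, 42.3 and 43.6 CPM in the same order. Its groups were separated by more than the range within either. For DDIT4, edgeR with Benjamini-Hochberg adjustment gave a log2 fold change of 0.49 and a standard error of 0.088 (unadjusted p = 0.000133, adjusted p = 0.0149, exact permutation p = 0.1). The adjusted p from that edgeR fit was 0.00283 without knockout 1, 0.0633 without knockout 2, 0.0504 without knockout 3, 0.0582 without control 1, 0.0883 without control 2 and 0.0574 without control 3. DDIT4 lies in a stretch of chromosome 10 where its neighbours were higher as well: all 40 tested genes nearest to it, 20 on each side, had log2 fold changes above 0. Their median was 0.27, from 0.039 to 0.69, and 4 of the 40 passed the adjusted threshold. A difference at DDIT4 alone and one of the whole stretch cannot be told apart for this gene.

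DDIT3, which encodes the transcription factor CHOP, was measured at 35.0, 30.6 and 29.2 CPM in the libraries labelled control and 43.6, 39.3 and 35.2 CPM in those labelled BMAL1 knockout. Control 1 and knockout 3 differed little, so the groups were only just separate, and the result was a log2 fold change of 0.32 and a standard error of 0.10 (unadjusted p = 0.0104, adjusted p = 0.141, exact permutation p = 0.1) by edgeR (quasi-likelihood test, Benjamini-Hochberg adjustment). With control 3 and knockout 1 left out, the log2 fold change of DDIT3 was 0.18 (adjusted p = 0.150, edgeR with Benjamini-Hochberg adjustment). With the GC trend removed and replicate numbers as a block, it was 0.32 (adjusted p = 0.0261, the same test). Exons of DDIT3 share 27.2% of their length with MARS1 on the opposite strand, so its counts are uncertain. CEBPG, a partner of ATF4 in DNA binding, was measured at 18.1, 18.8 and 19.7 CPM and 25.1, 22.6 and 21.1 CPM, with a log2 fold change of 0.28 and a standard error of 0.10 (unadjusted p = 0.0143, adjusted p = 0.166, exact permutation p = 0.1) in the same edgeR fit with Benjamini-Hochberg adjustment. SESN2, a sensor of leucine that restrains mTORC1, was measured at 46.1, 49.7 and 42.7 CPM and 51.8, 60.1 and 58.0 CPM. For SESN2, edgeR's test gave a log2 fold change of 0.29 and a standard error of 0.091 (unadjusted p = 0.00695, adjusted p = 0.116, exact permutation p = 0.1) with Benjamini-Hochberg adjustment, and the adjusted p was 0.0308 without knockout 1 and 0.190 to 0.359 without each of the others. Of the other 4 factors and feedback genes, TRIB3 and CHAC1 had log2 fold changes of 0.069 and 0.23, and CEBPB and PPP1R15A of -0.0087 and -0.12. Leaving out 1 library gave 0.011 to 0.12 for TRIB3, 0.14 to 0.32 for CHAC1 and -0.14 to -0.094 for PPP1R15A. None of these 4 had an unadjusted p under 0.05 by edgeR, and the sign of CEBPB turned with library size as the only scaling and with thinned counts. PPP1R15A, which directs the phosphatase that reverses eIF2 phosphorylation, was lower in all 3 libraries labelled BMAL1 knockout, at 97.8, 103 and 104 CPM against 111, 111 and 109 CPM.

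The amino acid and one-carbon enzymes numbered 7, of which 6 had log2 fold changes above 0 and none passed the adjusted threshold of edgeR; by DESeq2 1 of them, ASNS, passed (adjusted p = 0.0145). ASNS, the enzyme that makes asparagine, was measured at 78.2, 82.7 and 70.6 CPM in the libraries labelled control and 135, 106 and 85.8 CPM in those labelled BMAL1 knockout. Its values in the knockout group were spread widely, with knockout 1 highest and knockout 3 lowest. For ASNS, the comparison gave a log2 fold change of 0.50 and a standard error of 0.14 (unadjusted p = 0.00441, adjusted p = 0.0935, exact permutation p = 0.1) by edgeR (quasi-likelihood test, Benjamini-Hochberg adjustment). ASNS has a low exon GC content (43.2%), for which knockout 1 reads high, and with the GC trend removed its log2 fold change was 0.46 (adjusted p = 0.0860, edgeR with Benjamini-Hochberg adjustment). The adjusted p was 0.0166 without knockout 3 and 0.0976 to 0.239 without each of the others, and with control 3 and knockout 1 left out the log2 fold change was 0.25 with an adjusted p of 0.255, from the same edgeR test with Benjamini-Hochberg adjustment. PSPH, the last enzyme of serine synthesis, was measured at 28.6, 32.5 and 31.4 CPM and 37.0, 35.8 and 36.9 CPM, with a log2 fold change of 0.24 and a standard error of 0.085 (unadjusted p = 0.0141, adjusted p = 0.165, exact permutation p = 0.1) by the same edgeR test with Benjamini-Hochberg adjustment. MTHFD2, a mitochondrial folate enzyme, was measured at 235, 226 and 248 CPM and 318, 269 and 259 CPM. Knockout 1 stood highest for this gene, as it did for ASNS, and edgeR gave a log2 fold change of 0.26 and a standard error of 0.088 (unadjusted p = 0.0136, adjusted p = 0.161, exact permutation p = 0.1) with Benjamini-Hochberg adjustment. Without knockout 1 the log2 fold change was 0.16 for MTHFD2 and 0.31 for ASNS. PHGDH and PSAT1, the 2 earlier enzymes of serine synthesis, had log2 fold changes of 0.14 and 0.13, PCK2 of 0.068 and SHMT2 of -0.12, each with overlapping groups. With 1 library left out, values ran from 0.068 to 0.19 for PHGDH, 0.081 to 0.20 for PSAT1 and -0.17 to -0.089 for SHMT2.

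The amino acid transporters and the secreted and surface proteins did not share a direction. SLC7A5 and SLC3A2, the light and heavy chains of the leucine transporter LAT1, had log2 fold changes of -0.013 and 0.050 (0.020 to 0.073 for SLC3A2 with 1 library left out). SLC7A5 read 569.8 CPM in knockout 1 and 719.7 and 784 CPM in knockout 2 and 3, and its log2 fold change was 0.11 without knockout 1; the sign also turned in other alternatives. SLC7A1, a carrier of arginine and lysine, was measured at 177, 165 and 161 CPM in the libraries labelled control and 127, 158 and 151 CPM in those labelled BMAL1 knockout, with a log2 fold change of -0.21 and a standard error of 0.091 (unadjusted p = 0.0420, adjusted p = 0.275, exact permutation p = 0.1) by edgeR (quasi-likelihood test, Benjamini-Hochberg adjustment). Knockout 1 was the lowest library, and without it the log2 fold change of SLC7A1 was -0.12. STC2, a secreted glycoprotein (ENSG00000113739.11, chr5:173314723-173328447, reverse strand), was measured at 376, 357 and 349.9 CPM and 252, 251 and 255 CPM. The 3 libraries labelled BMAL1 knockout lay close together and below all 3 controls. For STC2, edgeR with Benjamini-Hochberg adjustment gave a log2 fold change of -0.51 and a standard error of 0.070 (unadjusted p = 9.12e-06, adjusted p = 0.00315, exact permutation p = 0.1), the smallest p of the 43 genes, and the adjusted p was at most 0.0285 when any 1 library was left out. STC2 is thus the called gene of the amino acid arm whose direction was opposite to the median of the arm. VLDLR, a lipoprotein receptor, was measured at 11.9, 9.27 and 9.25 CPM and 12.8, 15.5 and 12.9 CPM, with a log2 fold change of 0.44 and a standard error of 0.13 (unadjusted p = 0.00689, adjusted p = 0.116, exact permutation p = 0.1) by edgeR's test with Benjamini-Hochberg adjustment. GDF15, a secreted stress hormone, was measured at 14.6, 14.6 and 10.8 CPM and 12.3, 18.1 and 16.3 CPM, and its groups overlapped, with a log2 fold change of 0.22 that ran from 0.087 to 0.36 with 1 library left out.

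**Figure D3:**
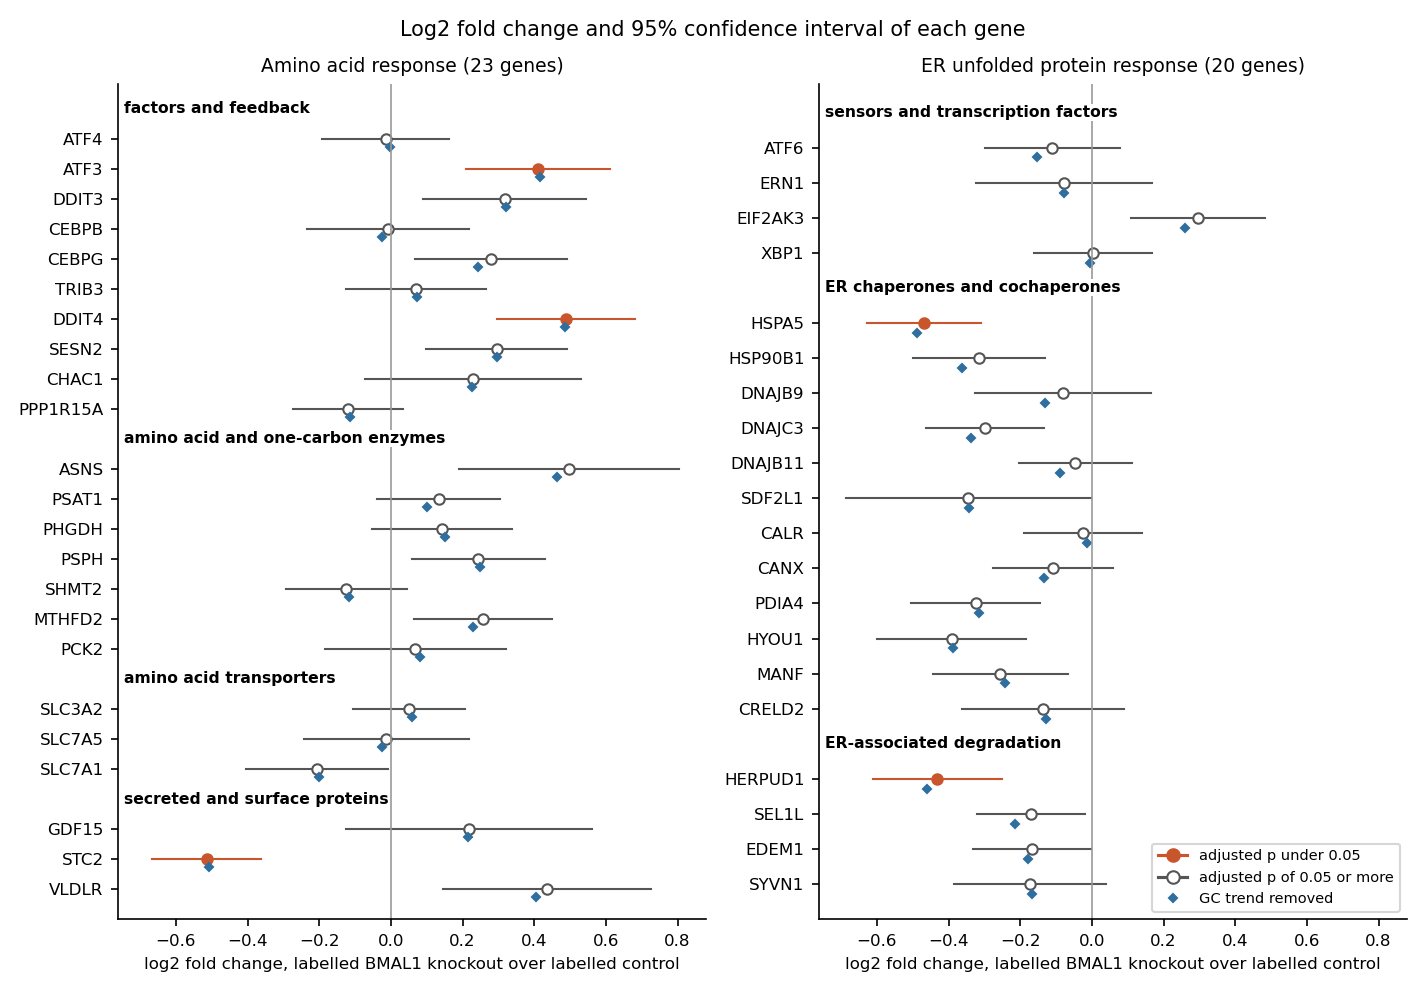
Log2 fold change (BMAL1 knockout label over control) of each gene (circles) with its 95% confidence interval (bars), by role, and the same value with the GC trend removed (blue diamonds). Filled orange circles mark the 5 genes with an adjusted p under 0.05, which are ATF3 (0.41), DDIT4 (0.49), STC2 (-0.51), HSPA5 (-0.47) and HERPUD1 (-0.43); all 16 chaperone and degradation genes lie below 0.

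In the ER arm, 2 of the 4 sensors and transcription factors had log2 fold changes above 0, with a median of -0.037. XBP1, the factor that IRE1 activates, was measured at 103, 102 and 107 CPM in the libraries labelled control and 111, 98.8 and 103 CPM in those labelled BMAL1 knockout. The groups overlapped, with a log2 fold change of 0.0030 and a standard error of 0.075 (unadjusted p = 0.969, adjusted p = 0.989, exact permutation p = 0.9) by edgeR (quasi-likelihood test, Benjamini-Hochberg adjustment), and the 95% confidence interval of the log2 fold change ran from -0.16 to 0.17. The counts do not separate its spliced and unspliced mRNA. EIF2AK3, which encodes PERK, was measured at 31.6, 35.0 and 36.2 CPM and 40.5, 42.7 and 43.1 CPM. It was the ER gene whose groups did not overlap in the higher direction, with a log2 fold change of 0.30 and a standard error of 0.086 (unadjusted p = 0.00490, adjusted p = 0.0978, exact permutation p = 0.1) by edgeR's test with Benjamini-Hochberg adjustment, and the 40 tested genes around it had a median of 0.17. ATF6 and ERN1, which encodes IRE1, had log2 fold changes of -0.11 and -0.077 with overlapping groups, and leaving out 1 library gave -0.21 to -0.066 for ATF6 and -0.16 to -0.0089 for ERN1.

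The 12 ER chaperones and cochaperones all had log2 fold changes below 0, with a median of -0.28. The sign of CALR turned with library size as the only scaling, and its value ran from -0.069 to 0.015 with 1 library left out. The promoters of both arms were searched for motifs. In the RefSeq promoter windows of GRCh38.p14, 250 bases before to 50 bases after the start, 41 of the 43 genes were matched; PSPH and SHMT2 were not. Both strands were searched for the ER stress element ERSE (CCAAT, any 9 bases and CCACG), the related ERSE-II (ATTGG, any 1 base and CCACG), the unfolded protein response element UPRE (TGACGTGG), the C/EBP-ATF response element CARE (TGATGNAA), the cyclic AMP response element CRE (TGACGTCA) and the E-box (CACGTG). ERSE was in 6 of the 20 ER windows, in 0 of the 21 amino acid response windows and in 0.147% of the windows of the 10903 tested genes that had one. ERSE-II was in 3 of the 20 ER windows, in 0 of the 21 and in 0.119% of the tested genes. The matches and 5 bases on each side follow 5′ to 3′ on the strand of the gene, with the match in capitals and in hg38 coordinates. The first 4 below are ERSE matches, of which that of CALR is on the opposite strand, and the last 3 are ERSE-II matches, of which those of HYOU1 and SDF2L1 are on the opposite strand.
HSPA5 at chr9:125241386-125241414, reverse strand: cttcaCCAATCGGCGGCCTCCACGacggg
HSP90B1 at chr12:103930211-103930239, forward strand: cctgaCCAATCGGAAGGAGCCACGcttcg
XBP1 at chr22:28800598-28800626, reverse strand: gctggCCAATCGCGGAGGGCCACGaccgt
CALR at chr19:12938379-12938407, forward strand: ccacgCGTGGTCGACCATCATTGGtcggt
HERPUD1 at chr16:56932020-56932040, forward strand: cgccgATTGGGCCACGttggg
HYOU1 at chr11:119057269-119057289, reverse strand: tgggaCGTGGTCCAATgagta
SDF2L1 at chr22:21642109-21642129, forward strand: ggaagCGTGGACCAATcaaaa
By GENCODE v44 these stretches lie outside the annotated gene, except that of HSP90B1, which lies in an annotated exon of the gene. CANX and CRELD2 also held ERSE, HSP90B1 held another ERSE match, and HYOU1 another ERSE-II match. The 9 ER genes with ERSE or ERSE-II had a median log2 fold change of -0.32, and the 11 with neither had a median of -0.17. Of the 9, edgeR called 2 lower (4 with the GC trend removed), 4 were lower without overlap of the groups and 5 had an unadjusted p under 0.05 in the lower direction. Of the 11, these were 0 (2 with the GC trend removed), 5 and 5, beside 1.43% (4.77%), 11.5% and 7.78% of all loci. HSPA5 and HERPUD1, both called, are among the 9, and so are XBP1, CALR, SDF2L1, CANX and CRELD2, whose groups overlapped. A match is a description of these letters, not a site or a cause.

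HSPA5, which encodes BiP, the main HSP70 chaperone of the ER (ENSG00000044574.9, chr9:125234853-125241382, reverse strand), was measured at 1974, 1957 and 1757 CPM in the libraries labelled control and 1371, 1386 and 1354 CPM in those labelled BMAL1 knockout. The 3 knockout values lay close together, below the lowest control value, which was that of control 3. For HSPA5, the comparison gave a log2 fold change of -0.47 and a standard error of 0.073 (unadjusted p = 3.55e-05, adjusted p = 0.00676, exact permutation p = 0.1) by edgeR (quasi-likelihood test, Benjamini-Hochberg adjustment), a level 0.723 times that of the controls. The adjusted p was 0.0663 without control 2 and under 0.05 when any other library was left out. HSPA5 had the highest level of the 43 genes per kb of exon, at 290.4 CPM per kb in the libraries labelled control, and it made up 23.4% of the summed CPM of the ER arm over the 6 libraries. HYOU1, a large cochaperone that releases nucleotide from BiP, was measured at 272, 272 and 242 CPM and 173, 208 and 218 CPM, with knockout 1 lowest. For HYOU1, edgeR with Benjamini-Hochberg adjustment gave a log2 fold change of -0.39 and a standard error of 0.095 (unadjusted p = 0.00144, adjusted p = 0.0542, exact permutation p = 0.1), and the adjusted p was 0.0291 without knockout 1, 0.0462 without knockout 3 and 0.0950 to 0.205 without each of the others. HSP90B1, which encodes the HSP90 of the ER, was measured at 1274, 1265 and 1212 CPM and 1124, 972 and 918 CPM. Knockout 1 lay nearest to the controls, and the result was a log2 fold change of -0.32 and a standard error of 0.085 (unadjusted p = 0.00289, adjusted p = 0.0759, exact permutation p = 0.1) by edgeR's test with Benjamini-Hochberg adjustment. Its adjusted p was 0.00155 without knockout 1 and 0.165 to 0.268 without each of the others.

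PDIA4, a disulfide isomerase of the ER, was measured at 595, 583 and 513 CPM in the libraries labelled control and 422, 473 and 455 CPM in those labelled BMAL1 knockout. For PDIA4, edgeR with Benjamini-Hochberg adjustment gave a log2 fold change of -0.32 and a standard error of 0.082 (unadjusted p = 0.00197, adjusted p = 0.0632, exact permutation p = 0.1), and the adjusted p was 0.0362 without knockout 1 and 0.0686 to 0.253 without each of the others. DNAJC3, a cochaperone that is also known as an inhibitor of eIF2 kinases, was measured at 103, 109 and 117 CPM and 91.0, 88.2 and 88.8 CPM. The 3 knockout values lay close together, with a log2 fold change of -0.30 and a standard error of 0.076 (unadjusted p = 0.00201, adjusted p = 0.0638, exact permutation p = 0.1) by the same edgeR test with Benjamini-Hochberg adjustment, and an adjusted p of 0.0325 without knockout 1 and 0.114 to 0.234 without each of the others. MANF, a small ER protein released under stress, was measured at 72.6, 68.1 and 60.8 CPM and 58.2, 57.4 and 53.3 CPM, with a log2 fold change of -0.26 and a standard error of 0.087 (unadjusted p = 0.0123, adjusted p = 0.154, exact permutation p = 0.1) in that edgeR fit with Benjamini-Hochberg adjustment. SDF2L1, a cochaperone of BiP, was measured at 44.02, 45.5 and 28.2 CPM and 29.5, 34.1 and 29.2 CPM. Control 3 was the lowest of the 6 libraries, so the groups overlapped. For SDF2L1, edgeR gave a log2 fold change of -0.34 and a standard error of 0.16 (unadjusted p = 0.0484, adjusted p = 0.293, exact permutation p = 0.4) with Benjamini-Hochberg adjustment, and without control 3 a log2 fold change of -0.53 with an adjusted p of 0.0468; that p was 0.341 to 0.645 without each of the others, and the log2 fold change was -0.22 without control 2. The other 5 chaperones had overlapping groups, with log2 fold changes of -0.024 for CALR, -0.046 for DNAJB11, -0.080 for DNAJB9, -0.11 for CANX and -0.14 for CRELD2. Leaving out 1 library moved these to -0.080 to -0.022 for DNAJB11, -0.16 to -0.0071 for DNAJB9, -0.17 to -0.070 for CANX and -0.23 to -0.056 for CRELD2. CALR and CANX, the lectin chaperones that bind newly made glycoproteins, thus lay nearer to 0 than HSPA5 and HSP90B1, a difference between genes that was not tested.

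The 4 genes of ER-associated degradation, in which misfolded proteins are pulled back into the cytosol and destroyed, had a median log2 fold change of -0.17. HERPUD1, a membrane protein that organises the degradation complex (ENSG00000051108.15, chr16:56932142-56944864, forward strand), was measured at 55.5, 52.0 and 50.8 CPM in the libraries labelled control and 37.8, 38.1 and 41.4 CPM in those labelled BMAL1 knockout. The groups were separated by more than the range within either. For HERPUD1, the comparison gave a log2 fold change of -0.43 and a standard error of 0.082 (unadjusted p = 0.000214, adjusted p = 0.0188, exact permutation p = 0.1) by edgeR (quasi-likelihood test, Benjamini-Hochberg adjustment). Its adjusted p from that edgeR fit was 0.0951 without knockout 2, 0.0947 without control 1 and 0.0859 without control 2, and under 0.05 without any of the other libraries. By edgeR with replicate numbers as a block, the adjusted p of HERPUD1 was 0.0504, at a log2 fold change of -0.43. Besides the ERSE-II match shown above, the HERPUD1 window held a CARE match and an E-box match, the latter being the motif to which BMAL1 and CLOCK bind.
HERPUD1 at chr16:56931961-56931978, forward strand: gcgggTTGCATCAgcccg
HERPUD1 at chr16:56931978-56931993, forward strand: gtgccCACGTGctcgg
Both stretches lie outside the annotated gene, the CARE match being on the opposite strand. The E-box was in 4 of the 20 ER windows (HSP90B1, DNAJB9, CANX and HERPUD1). It was also in 2 of the 21 amino acid response windows (ATF4 and SLC7A5) and in 12.6% of those of tested genes. Besides HERPUD1, HSP90B1 was lower without overlap of the groups, while the groups overlapped for DNAJB9, CANX, ATF4 and SLC7A5. Binding of BMAL1 to these windows was not tested. SEL1L, the adaptor of the ubiquitin ligase SYVN1, was measured at 228, 223 and 226 CPM and 199, 207 and 195 CPM, with a log2 fold change of -0.17 and a standard error of 0.069 (unadjusted p = 0.0295, adjusted p = 0.233, exact permutation p = 0.1) by edgeR's test with Benjamini-Hochberg adjustment. EDEM1, which helps to select misfolded glycoproteins, was measured at 80.1, 79.1 and 83.2 CPM and 67.8, 74.4 and 73.7 CPM, with a log2 fold change of -0.17 and a standard error of 0.075 (unadjusted p = 0.0469, adjusted p = 0.288, exact permutation p = 0.1) by the same edgeR test with Benjamini-Hochberg adjustment. SYVN1 itself had overlapping groups and a log2 fold change of -0.17 (-0.24 to -0.10 for SYVN1 with 1 library left out).

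The motif of the amino acid arm was more common among all promoters. CARE was in 6 of the 21 amino acid response windows (ATF3, CEBPG, CHAC1, ASNS, SLC3A2 and SLC7A1), in 1 of the 20 ER windows and in 2.8% of those of tested genes. The matches in ATF3, called higher, and in ASNS, with the log2 fold change furthest above 0, are shown with 5 bases on each side, both on the strand of the gene.
ATF3 at chr1:212565211-212565228, forward strand: caggaTGATGGAAggctg
ASNS at chr7:97872464-97872481, reverse strand: aggcaTGATGAAActtcc
By GENCODE v44 the first lies outside the gene and the other in an annotated exon of ASNS. The 6 amino acid response genes with CARE had a median log2 fold change of 0.25, beside 0.14 for the whole arm of 23 genes. All 7 genes with CARE, which include HERPUD1 (called lower), had a median of 0.23. Of the 6, edgeR called 1 higher, beside 1.08% of all loci. Without overlap of the groups, 3 of the 6 lay higher and 1 lower, beside 11.8% and 11.5% of all loci. SLC7A1, 1 of the 6, lay lower in all 3 libraries labelled BMAL1 knockout. UPRE was found in HYOU1 alone among the 41 windows and in 1.27% of those of tested genes, and CRE in PPP1R15A alone and in 3.71%. No match says only that these letters are not in the window.

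By library, the levels of the roles were averaged over genes as log2 of CPM over the mean of the 6 libraries. The ER chaperones were at 0.15, 0.14 and 0.024 in control 1, 2 and 3 and at -0.11, -0.11 and -0.16 in knockout 1, 2 and 3. The groups did not overlap, and control 3 was nearest to the knockout group. For the factors and feedback genes of the amino acid response, the values were -0.051, -0.088 and -0.18 and 0.064, 0.12 and 0.078. For the enzymes they were -0.072, -0.053 and -0.16 and 0.15, 0.11 and -0.035, with knockout 3 nearest to the controls. The transporters overlapped between the groups, with knockout 1 lowest of all at -0.20. In summed CPM, the ER arm held 7737, 7668 and 7362 CPM in the libraries labelled control and 6608, 6370.3 and 6211 CPM in those labelled BMAL1 knockout, and the amino acid arm 3068, 3007 and 2862 and 2902, 3062 and 3032 CPM. The summed level of the amino acid arm thus overlapped between the groups, its most abundant gene being SLC7A5. In these libraries a difference in every cell and one in a share of the cells cannot be told apart.

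**Figure D4:**
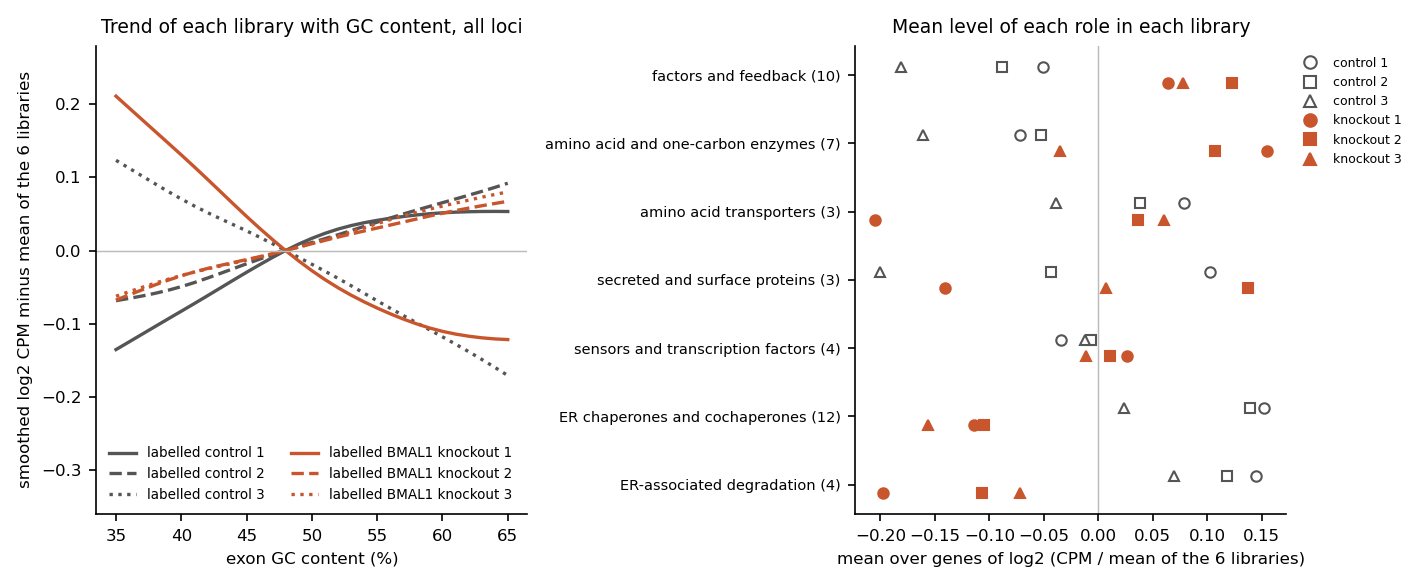
Left, smoothed log2 CPM of each library minus the mean of the 6 libraries (y) against exon GC content in % (x) over all loci with known GC content; control 3 and knockout 1 fall while the other 4 rise. Right, mean over the genes of each role (number in brackets) of log2 CPM relative to the mean of the 6 libraries, 1 symbol a library; the chaperones and the degradation genes are lower in all 3 libraries labelled BMAL1 knockout.

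Per kb of union exon length in GENCODE v44, which depends on the transcripts annotated, levels in the libraries labelled control differed widely among the 43 genes. After HSPA5 came CALR at 268 CPM per kb, PDIA4 at 171, SLC7A5 at 146, CANX at 132 and HSP90B1 at 95.5 CPM per kb. The lowest were VLDLR at 0.614 and ERN1 at 0.680 CPM per kb, and ATF4 stood at 75.7 and DDIT3 at 24.2 CPM per kb. Apart from DDIT4, the median log2 fold change of the nearest tested genes (up to 20 on each side, fewer near chromosome ends) lay between -0.090 (SYVN1) and 0.17 (EIF2AK3), and it was 0.014 for HSPA5, -0.022 for STC2, 0.0050 for HERPUD1 and 0.079 for ATF3. Exon overlap adds uncertainty for some genes: ASNS shares 49.3% of its exon length with a long noncoding RNA on the same strand, MTHFD2 11.6% with SLC4A5, HSP90B1 6.15% with UQCC6 and SYVN1 6.48% with MRPL49, the last 3 on the opposite strand.

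Other genes of both pathways were taken from lists that do not hold the 43. They are read beside all loci, of which 52.2% lay above 0, 1.08% were called higher and 1.43% lower. Of 18 eIF2 kinases and eIF2 factors, 6 had log2 fold changes above 0, the median was -0.014, and GCN1 passed, in the lower direction. GCN1, which activates the kinase GCN2 at stalled ribosomes, was measured at 279, 271 and 273 CPM in the libraries labelled control and 179, 213 and 229 CPM in those labelled BMAL1 knockout, with a log2 fold change of -0.41 and a standard error of 0.091 (adjusted p = 0.0391) by edgeR (quasi-likelihood test, Benjamini-Hochberg adjustment). Of 21 tRNA synthetases and tRNA export genes, many of them known ATF4 targets, 8 lay above 0, with a median of -0.038. VARS1, for valine, passed in the lower direction, at 148, 146 and 143 CPM and 104, 106 and 124 CPM, with a log2 fold change of -0.38 and a standard error of 0.082 (adjusted p = 0.0344) by edgeR's test with Benjamini-Hochberg adjustment. Of 35 other amino acid response genes tested (INHBE and FGF21 were too low), 19 lay above 0, with a median of 0.037, and 3 were called higher. TXNIP, an inhibitor of thioredoxin and of glucose uptake, was measured at 167, 165 and 150.0 CPM and 252, 225 and 233 CPM, with a log2 fold change of 0.56 and a standard error of 0.078 (adjusted p = 0.00372) by the same edgeR test with Benjamini-Hochberg adjustment. GADD45A, which also stands in the p53 list below, had a log2 fold change of 0.39 and a standard error of 0.072 (adjusted p = 0.0163), and ALDH1L2, a mitochondrial folate enzyme at 0.895, 1.08 and 1.00 CPM against 1.87, 2.00 and 2.05 CPM, had a log2 fold change of 0.99 and a standard error of 0.22 (adjusted p = 0.0387), both by edgeR with Benjamini-Hochberg adjustment. Outside the 43 genes, the shift of the amino acid arm was thus small in the median.

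Of 34 other ER folding and glycosylation genes, 5 had log2 fold changes above 0 and 29 below, with a median of -0.080. None passed the adjusted threshold of edgeR. With the GC trend removed 1 passed, in the lower direction, beside 4.77% of loci. Those with an unadjusted p under 0.05 were 2, both lower, beside 7.78% of all loci. Groups did not overlap for 0 of the 34 in the higher and 8 in the lower direction, beside 11.8% and 11.5% of all loci. The 2 with the smallest p were SIL1, an exchange factor for BiP (-0.30, adjusted p = 0.126, edgeR with Benjamini-Hochberg adjustment), and TXNDC5, a disulfide isomerase (-0.18, adjusted p = 0.246). Of 22 other ER degradation genes, 7 lay above 0, with a median of -0.036 and none called by edgeR. Those with an unadjusted p under 0.05 were 3, all lower, beside 7.78% of all loci. Groups did not overlap for 1 of the 22 in the higher and 5 in the lower direction, beside 11.8% and 11.5% of all loci. With the GC trend removed 2 passed, both lower, beside 4.77% of loci. DERL1, a channel protein of ER degradation, had a log2 fold change of -0.25 and the ubiquitin-conjugating enzyme UBE2G2 of -0.20 (adjusted p = 0.102 and 0.168, edgeR with Benjamini-Hochberg adjustment). Of 37 other ER stress factors and trafficking genes, 16 lay above 0, with a median of -0.046 and none called by edgeR. At an unadjusted p under 0.05, 3 lay higher and 2 lower, beside 9.08% and 7.78% of all loci. Groups did not overlap for 3 of the 37 in the higher and 9 in the lower direction, beside 11.8% and 11.5% of all loci. With the GC trend removed 1 passed in the higher and 2 in the lower direction, beside 3.23% and 4.77% of loci. TMED2, a cargo receptor, had a log2 fold change of -0.28 and KDELR3, a receptor that returns chaperones to the ER, of 0.23 (adjusted p = 0.0654 and 0.139 by the same edgeR test with Benjamini-Hochberg adjustment).

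Comparison lists from other stress pathways were read in the same way. Of all loci, 52.2% lay above 0, and edgeR called 1.08% higher and 1.43% lower. Of 25 cytosolic heat shock chaperones tested, 7 lay above 0, with a median of -0.051. Groups did not overlap for 1 of the 25 in the higher and 5 in the lower direction, beside 11.8% and 11.5% of all loci. CRYAB, a small heat shock protein, passed in the higher direction, at 2.98, 4.08 and 3.18 CPM in the libraries labelled control and 7.57, 9.17 and 6.88 CPM in those labelled BMAL1 knockout, with a log2 fold change of 1.20 and a standard error of 0.17 (adjusted p = 0.00385) by edgeR (quasi-likelihood test, Benjamini-Hochberg adjustment). Of 23 NRF2 targets, 9 lay above 0, with a median of -0.024, and edgeR called none. At an unadjusted p under 0.05, 1 lay higher and 2 lower, beside 9.08% and 7.78% of all loci. With the GC trend removed 1 passed, in the lower direction, beside 4.77% of loci. The smallest p among the NRF2 targets was that of SLC7A11, the cystine carrier and also a known ATF4 target, with a log2 fold change of -0.32 and a standard error of 0.091 (adjusted p = 0.0938) by edgeR with Benjamini-Hochberg adjustment, followed by AKR1B10 (0.92, adjusted p = 0.142). Of 25 p53 targets, 22 lay above 0, with a median of 0.36. With the GC trend removed 12 were called higher, beside 3.23% of loci, and without that step 9 were, beside 1.08%. The 6 with the smallest p were BTG2 (0.85), TP53I3 (0.74), MDM2 (0.48), PPM1D (0.56), FAS (0.61) and TP53INP1 (0.69), given as log2 fold changes. As background, ATF3, DDIT4, SESN2 and GDF15 are known to be switched on by p53 as well as by ATF4. The part of p53 in the values of these 4 genes was not tested.

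Markers of the cell type were checked against the label. Of the thyroid follicular markers, PAX8 was the most abundant, at a mean of 122 CPM, and the log2 fold changes of those tested were -0.28 (PAX8), -0.26 (FOXE1), 0.32 (DIO2), 0.15 (SLC26A4) and 0.052 (HHEX); edgeR called none, and PAX8 and FOXE1 had an unadjusted p under 0.05. DUOXA2, IYD and NKX2-1 had 0 reads in every library, and TG, TSHR and SLC5A5 were under 1 CPM, so little thyroglobulin mRNA was found. Of 8 epithelial markers 7 were tested and 1, KRT18, was called, in the lower direction; KRT8 was the most abundant, and EPCAM and CDH1 were under 1 CPM. The others tested had log2 fold changes of -0.28 (KRT8), 0.10 (KRT7), 0.23 (KRT19), 0.59 (CLDN4), 1.57 (EPCAM) and -0.0019 (MUC1). KRT8 was lower in all 3 libraries labelled BMAL1 knockout, at 1156, 1148 and 1165 CPM against 1416, 1444 and 1363 CPM (adjusted p = 0.0507, edgeR with Benjamini-Hochberg adjustment), and it was the only 1 of these 6 with an unadjusted p under 0.05. KRT18 was downregulated, at 651, 564 and 591 CPM in the libraries labelled BMAL1 knockout against 842, 860.5 and 853 CPM in the controls, with a log2 fold change of -0.50 and a standard error of 0.076 (adjusted p = 0.00583) by edgeR (quasi-likelihood test, Benjamini-Hochberg adjustment). Of the immune markers, CD68 was the most abundant, at a mean of 11.1 CPM, and CD3E was at 0. CD68 and CD14, the latter at a mean under 1 CPM, were not called, with log2 fold changes of -0.27 and 0.99, and CD68 had an unadjusted p under 0.05. PTPRC was lower, at 2.51, 1.97 and 2.60 CPM in the libraries labelled BMAL1 knockout against 6.41, 6.24 and 6.53 CPM in the controls, with a log2 fold change of -1.43 and a standard error of 0.16 (adjusted p = 0.00127) by the same edgeR test with Benjamini-Hochberg adjustment. Of 8 mesenchymal markers 4 had counts enough to be tested by edgeR and none of them was called, while 2 had an unadjusted p under 0.05, VIM and CDH2, with log2 fold changes of -0.24 and -0.17. VIM was the most abundant, DCN and LUM were at 0, and the 5 endothelial markers summed to under 3 CPM in every library, as did the 4 parathyroid and C cell markers. The part of these marker differences, and of the greater depth of knockout 1 and 3, in the values of the 43 genes was not tested, beyond the values after thinning all libraries to the smallest total count, with which the same 5 genes passed.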

How the data were processed

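RNA from 3 libraries labelled control and 3 labelled BMAL1 knockout had been sequenced in bulk. The deposited table holds counts of reads per gene, which the authors made from reads aligned to hg38; their methods name fastp 0.20.1 and HISAT2 2.0.4. The values are whole numbers, and depth per library is given in the opening of the report. The 43 genes and the gene lists were chosen with earlier results of these data known. Counts were scaled by TMM and filtered by filterByExpr, and 14860 of 22354 loci were tested with edgeR 4.0.16 (glmQLFit with robust estimation, glmQLFTest, 2-sided) in R 4.3.3, with Benjamini-Hochberg adjustment over all loci tested. CPM are scaled by the same factors. The biological coefficient of variation was 0.108. Genes with an adjusted or unadjusted p under 0.05, and ATF4, DDIT3, XBP1 and HSPA5, are described with all their values, and the others by their log2 fold changes. From each further list, the called genes with the smallest p are named, or the genes with the smallest p where none was called. Exon lengths, GC content, neighbours and overlaps were taken from GENCODE v44, and promoter windows from RefSeq. As alternatives, 16 planned changes were made to scaling, filter, tool (DESeq2 1.42.0, limma 3.58.1), pairing, GC trend, depth and libraries, with the study's thresholds for the count of loci, and 1 was added after seeing the data, with control 3 and knockout 1 both left out. GC content was known for 91.4% of the tested loci. The scripts were tested on simulated data.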

Additional observations from a re-analysis of the deposited data

How the results depend on the processing

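Beside 161 loci called higher and 212 lower, DESeq2 gave 256 and 379, limma-voom 102 and 153, removal of the GC trend 439 and 647, and removal of the GC trend with the replicate block 322 and 507. With control 3 and knockout 1 both left out, an alternative added after seeing the data, 1011 and 1265 were called, and the study's thresholds (fold change over 2, unadjusted p under 0.01) gave 94 and 48. Library size as the only scaling moved the balance to 185 higher and 155 lower. Leaving out 1 library gave 46 to 293 higher and 67 to 340 lower. Of the amino acid response, 3 genes were called, 2 by limma-voom (without ATF3), 5 with the GC trend removed, 6 with the replicate block added to that, 8 with both libraries left out and 1 to 4 with 1 library left out. Of the ER arm, 2 were called, 6 by DESeq2, 6 with the GC trend removed, 8 with the replicate block added to that, 12 with both libraries left out and 0 to 6 with 1 library left out. The replicate block alone called 132 loci higher and 145 lower, 3 amino acid response genes and 1 ER gene; it ended the calls of ATF3 (adjusted p = 0.0739) and HERPUD1 (adjusted p = 0.0504) and added ASNS (adjusted p = 0.0492), all by edgeR. Whether replicate numbers pair the samples is not given in the sources used here. The same-number correlations of -0.0896, -0.0517 and -0.00471 showed no pairing but cannot exclude it with 3 libraries a group. The median log2 fold change of the amino acid arm (0.14) ran from 0.087 without control 3 to 0.19 without control 1, and that of the ER arm (-0.17) from -0.20 to -0.15 with 1 library left out; both kept their sign in every alternative. That of BMAL1 ran from 0.50 to 0.70 with 1 library left out. Signs turned only for genes near 0. Library size as the only scaling gave 0.013 for ATF4, 0.020 for CEBPB, 0.019 for SLC7A5 and 0.0041 for CALR, and thinning gave 0.020 for CEBPB. With both libraries left out PCK2 was at -0.048, SLC7A5 at 0.076 and XBP1 at -0.024. XBP1 was at -0.0058 with the GC trend removed and at -0.0070 with the replicate block added. With 1 library left out, values ran from -0.085 to 0.030 for ATF4, -0.10 to 0.059 for CEBPB, -0.018 to 0.14 for PCK2, -0.11 to 0.11 for SLC7A5, -0.047 to 0.041 for XBP1 and -0.069 to 0.015 for CALR.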
